A study of Homo sapiens with 12 samples.

Results

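The EZH2 Y646N line of OCI-Ly7, a human diffuse large B-cell lymphoma cell line, was compared with wild-type OCI-Ly7 across all genes with enough counts. The comparison used 5 of the 11 libraries in the count table, chosen by their genotype labels: 3 of wild type (WT) and 2 of the EZH2 mutant. Replicate 3 of the EZH2 mutant was not analysed here. The other 6 libraries came from a kmt2d-/- line and from a line that was kmt2d-/- + EZH2 Y646N, with 3 libraries each, and all 4 lines were untreated. The mutants were made by CRISPR editing of OCI-Ly7. The labels do not give the number of clones behind a line, so the mutation and the line that carries it cannot be told apart. Each library used 20 ng of total RNA, converted to cDNA for MARS-seq, a method that counts the 3′ ends of polyadenylated transcripts. Nothing in the labels says that the replicates were separate cultures, so the p-values speak only of the spread among these libraries, which may be technical.

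EZH2 is the catalytic subunit of Polycomb repressive complex PRC2, which places methyl groups on lysine 27 of histone H3 and keeps genes silent. It is abundant in germinal center B cells, the dividing cells from which this class of lymphoma arises. Substitutions at its catalytic tyrosine, Y646N among them, change which methylation state the enzyme makes best and raise trimethylation of the lysine. The pathways described here are those a germinal center B cell runs at a high rate: making ribosomes, translating, respiring, folding and degrading proteins, dividing, and signalling through its antigen receptor.

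The 3 WT libraries held 1748860, 2801302 and 2460277 counts, and the EZH2 mutant libraries 1118710 and 2183775. In these libraries 3 counts equal 1.07 to 2.68 CPM, or counts-per-million of the library total. The CPM levels of genes given below were further scaled by the trimmed mean of M values. Replicates of 1 line correlated at r = 0.960 to 0.983 on the log2 scale. Replicate 1 of the EZH2 mutant was both the shallowest library of the 11 and the one that stood farthest apart on the first 2 principal components, so results that needed it are marked as such below. The B-cell label held: the antigen receptor chain CD79B stood at 2540.4, 1723 and 2083 CPM in WT and at 4022 and 3074 in the EZH2 mutant. Of 23 listed T and NK cell markers 20 were in the table, and 11 of these had no count in any of the 5, CD3D, CD2 and CD8A among them. Their sum was 279.5 to 371.7 CPM in WT and 269.1 and 308.3 in the EZH2 mutant, most of it the kinase LCK at 203 to 268 CPM. Summed myeloid markers stayed at or under 32.6 CPM, with 12 of 18 at 0. In bulk libraries, fewer cells of a type and less RNA per cell cannot be told apart.

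EZH2 itself stood at 70.2, 85.0 and 75.5 CPM in WT and at 54.3 and 75 in the EZH2 mutant. The groups overlapped, and the log2 difference of -0.23 ± 0.17 (SE) did not pass the test (quasi-likelihood test of edgeR, Benjamini-Hochberg adjusted p = 0.33). The 3′ counts cannot see the Y646N substitution, so the level of EZH2 does not check the genotype. Of its partners in PRC2, EED, which reads the methyl mark, stood at 16.4, 15 and 28.8 CPM in WT and at 15.4 and 14.9 in the EZH2 mutant. The histone-binding subunit RBBP4 fell from 49.2, 53.7 and 55.6 CPM to 23.6 and 31.8, a log2 change of -0.89 ± 0.19. EZH1, the second methyltransferase of the family, stood at 79.8, 83.0 and 64.0 CPM against 50.2 and 54.6, with edgeR adjusted p = 0.031 that rose to 0.16 and 0.088 without mutant replicates 1 and 2, 0.063 without WT replicate 1 and 0.062 without WT replicate 2. In all, 1 of the 12 PRC2 genes tested rose and 4 fell. That count of falls was 1 without EZH2 mutant replicate 1 or WT replicate 2, and 2 without WT replicate 1 or 3.

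Counts sufficed to test 8813 of 28278 listed genes, and 2846 of these (32.3%) differed between the EZH2 mutant and WT at an adjusted p under 0.05. The EZH2 mutant was higher for 1511 genes (17.1% of those tested) and lower for 1335 (15.1%). Over all tested genes the median log2 difference was -0.04, with quartiles at -0.63 and 0.42. With upper-quartile scaling in place of the trimmed mean, that median moved to -0.20 and the split to 1015 higher and 1762 lower. Without EZH2 mutant replicate 1 there were 1003 higher and 776 lower. Where a gene is said below to have risen or fallen by a value, or a value stands with ± and an error, it is a log2 difference (with its SE) that passed the test unless stated. The counts of genes in each process are to be read against 17.1% called higher and 15.1% called lower. Of all 8813 tested genes, 2399 had both mutant libraries above every WT library and 2445 had both below. Named genes were chosen in part for such separation, so where it is stated below it describes them and is not added support.

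Genes for making ribosomes were higher in the EZH2 mutant, from the first cleavage of ribosomal RNA to the assembly of the large subunit. Of 36 genes of the small subunit processome that were tested, 16 rose and 1 fell, with a median log2 difference of 0.53. Of 39 genes of large subunit assembly, 18 rose and 1 fell, with a median of 0.58. All 8 called genes among 15 of the box C/D and H/ACA particles that modify ribosomal RNA rose, and so did all 5 called among 14 of RNA polymerase I and its factors (2 without WT replicate 2 and 3 without EZH2 mutant replicate 1). RNA polymerase III and its factors had 3 of 18 higher (16.7%) and 1 lower, a share of rises near that of all tested genes.

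Members with roles from transcription to subunit assembly were among those that rose. UTP20, a scaffold of the small subunit precursor, stood at 17.5, 17.7 and 17.3 CPM in WT and at 48.1 and 50.6 in the EZH2 mutant (log2 difference 1.50 ± 0.22, edgeR adjusted p = 7.3e-05). MYBBP1A, a nucleolar protein, rose from 56.0, 61.5 and 45.2 CPM to 185 and 178 (1.74 ± 0.17). NOP2, which methylates ribosomal RNA of the large subunit, rose from 98.4, 79.6 and 83.6 CPM to 249.9 and 222 (1.44 ± 0.16). In all 3 genes both mutant libraries lay far above the 3 WT libraries, which did not overlap them. RRP9, a protein of the U3 particle, rose by 1.49 ± 0.24, the assembly factor EBNA1BP2 by 1.40 ± 0.15 and MRTO4, which holds the place of the ribosomal stalk, by 1.39 ± 0.17. NOP56 of the box C/D particle and NHP2 of the H/ACA particle rose by 1.13 and 1.01, and POLR1C, a subunit shared by RNA polymerases I and III, by 1.21. UBTF, the factor that opens ribosomal DNA for transcription, did not pass the test (120.0, 138 and 137 CPM against 180.3 and 152; edgeR adjusted p = 0.12), nor did DKC1, the pseudouridine synthase of the H/ACA particle (0.21 ± 0.15).

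Genes of this kind often carry an E-box, the binding word of MYC and related factors, so the promoters of 3 genes that rose are shown. Each runs from 150 bases before to 30 after the RefSeq transcript start (GRCh38.p14, first promoter listed for the gene), 5′ to 3′ in the direction of the gene, with the letters CACGTG in capitals. UTP20 lies at chr12:101279955-101280134 on the plus strand, RRP9 at chr3:51941875-51942054 on the minus strand and MRTO4 at chr1:19251655-19251834 on the plus strand.
UTP20: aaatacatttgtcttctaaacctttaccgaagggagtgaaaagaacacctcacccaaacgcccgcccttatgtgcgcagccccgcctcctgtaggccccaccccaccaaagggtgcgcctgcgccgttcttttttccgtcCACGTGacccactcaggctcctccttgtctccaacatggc
RRP9: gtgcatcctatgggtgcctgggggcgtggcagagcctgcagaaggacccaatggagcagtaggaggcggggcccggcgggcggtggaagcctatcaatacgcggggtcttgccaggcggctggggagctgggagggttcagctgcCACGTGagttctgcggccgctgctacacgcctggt
MRTO4: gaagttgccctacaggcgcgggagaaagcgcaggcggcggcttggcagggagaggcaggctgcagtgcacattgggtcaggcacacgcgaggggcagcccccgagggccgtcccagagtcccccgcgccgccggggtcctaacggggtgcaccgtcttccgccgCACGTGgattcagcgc

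CACGTG reads the same on both strands. In promoters of 300 bases (250 before to 50 after the start), it was present in 31 of 75 with a promoter among the processome, large subunit and snoRNP genes tested (41.3%), against 11.3% of 7015 promoters of tested genes and 7.4% of all 27305 promoters. Among the members that rose it was present in 17 of 35. A match is a run of letters and not a measured binding site. MYC itself was not testable here, with 0 or 1 count in each of the 5 libraries.

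The machinery that reads and decodes messages rose in part. Of 34 initiation factor genes tested, 12 rose and 2 fell, and of 40 tRNA modification genes 15 rose and none fell, with medians of 0.13 and 0.48. Cytosolic aminoacyl-tRNA synthetases moved both ways, with 5 higher and 5 lower of 21, although only 2 were called lower without EZH2 mutant replicate 1.

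EIF5A, whose hypusine residue helps the ribosome past difficult peptide bonds, stood at 449, 610.4 and 481 CPM in WT and at 1440.0 and 1073 in the EZH2 mutant (1.29 ± 0.18). DOHH, which completes that hypusine, rose by 0.95 ± 0.20, and DPH2, which starts the diphthamide of elongation factor EEF2, by 1.31 ± 0.21. EEF2 itself stood at 2996, 3106 and 2508 CPM against 3362 and 3000.4, with overlapping groups. EIF3K and the scaffold EIF4G1 rose by 0.81 and 0.85, while EIF4EBP1, the repressor that keeps the cap-binding protein from EIF4G1, fell from 207, 181 and 187 CPM to 125 and 86.4 (-0.88 ± 0.18).

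Among the tRNA genes, QTRT1, which inserts queuine into tRNA anticodons, rose from 36.2, 30.3 and 34.1 CPM to 144 and 103 (1.87 ± 0.21, edgeR adjusted p = 3.6e-06). TRMT1 and PUS7, a methyltransferase and a pseudouridine synthase, rose by 1.33 and 1.61. VARS1, the valyl-tRNA synthetase, rose from 126, 106 and 114 CPM to 437 and 316 (1.70 ± 0.15), and AIMP2, a scaffold of the synthetase complex, by 1.14. SARS1, the seryl-tRNA synthetase, went the other way, from 432, 408 and 419 CPM to 288 and 246 (-0.66 ± 0.13). The synthetase genes thus split in direction.

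Mitochondrial genes were higher in 3 of their main roles: translating, importing and respiring. Of 43 genes of the large mitoribosomal subunit 22 rose and 1 fell (median 0.54), and of 26 of the small subunit 12 rose and none fell (median 0.44). The import translocases of the TOMM and TIMM families had 13 of 28 higher and 2 lower, of which neither was called without WT replicate 3 or without either mutant replicate. Complex I, which takes electrons from NADH, had 24 of 35 genes higher and none lower (median 0.64).

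MRPL20 stood at 155, 175 and 140.3 CPM in WT and at 386 and 437 in the EZH2 mutant (1.39 ± 0.15, edgeR adjusted p = 2.5e-06). MRPL12 rose by 1.30 ± 0.16, MRPS12 by 1.15 ± 0.15 and the mitochondrial elongation factor TUFM by 0.90 ± 0.14. At the import pores, TIMM13 rose from 169, 154 and 152 CPM to 517 and 372 (1.49 ± 0.15) and TOMM40 from 145, 118 and 188 to 437 and 345 (1.37 ± 0.24). All of these had both mutant libraries above every WT library.

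In the respiratory chain the accessory subunit NDUFS6 rose from 442, 462 and 378 CPM to 915 and 785 (0.99 ± 0.13). NDUFAB1, an acyl carrier that also serves lipoic acid synthesis, rose by 1.04 and another accessory subunit, NDUFB9, by 1.02. In the complexes downstream the log2 changes were 0.64 ± 0.13 for SDHB of complex II, 0.81 ± 0.14 for CYC1 of complex III and 0.88 ± 0.14 for COX5B of complex IV. The ring subunit ATP5MC1 of the ATP synthase rose from 204, 240.1 and 226 CPM to 648 and 755 (1.65 ± 0.15). NDUFAF8, an assembly factor of complex I, rose by 1.36, while ATPAF1, an assembly factor of the ATP synthase, fell from 14.1, 17 and 21.5 CPM to 3.07 and 3.48 (-2.39 ± 0.40). The ATPAF1 level in mutant replicate 1 was close to that of 3 counts, so the size of this fall is uncertain. TFAM, which packages mitochondrial DNA, was too low to judge, at 2.83 to 9.97 CPM in the 5 libraries (edgeR adjusted p = 0.29).

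Promoters of mitochondrial genes often hold ETS and NRF1 words, so 2 of each are shown over the same window, with CCGGAAG in capitals for the mitoribosomal genes and GCATGCG for the respiratory genes. In NDUFS6 the capitals also take in the reverse copy CGCATGC, which overlaps it. MRPL20 lies at chr1:1407264-1407443 on the minus strand, MRPS12 at chr19:38930794-38930973, NDUFS6 at chr5:1801257-1801436 and COX5B at chr2:97645912-97646091, the last 3 on the plus strand.
MRPL20: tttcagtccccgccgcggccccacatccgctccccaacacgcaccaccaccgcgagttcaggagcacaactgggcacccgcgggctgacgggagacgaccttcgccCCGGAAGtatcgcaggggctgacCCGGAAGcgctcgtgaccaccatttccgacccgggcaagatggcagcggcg
MRPS12: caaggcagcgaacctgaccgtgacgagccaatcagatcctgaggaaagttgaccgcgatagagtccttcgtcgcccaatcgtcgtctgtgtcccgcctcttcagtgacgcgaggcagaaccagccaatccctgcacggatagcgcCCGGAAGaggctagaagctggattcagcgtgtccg
NDUFS6: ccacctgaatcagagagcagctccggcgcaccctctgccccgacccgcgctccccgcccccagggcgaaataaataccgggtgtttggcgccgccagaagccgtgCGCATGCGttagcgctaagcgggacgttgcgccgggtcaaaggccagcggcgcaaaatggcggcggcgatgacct
COX5B: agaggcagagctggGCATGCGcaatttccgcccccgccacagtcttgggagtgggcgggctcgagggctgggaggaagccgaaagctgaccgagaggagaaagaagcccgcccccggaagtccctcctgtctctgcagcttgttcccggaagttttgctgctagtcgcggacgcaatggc

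On either strand of the 300 bases, CCGGAAG was present in 26 of 60 mitoribosomal promoters (43.3%), against 21.9% of promoters of tested genes and 10.7% of all promoters. Among the members that rose it was present in 12 of 31, a share no higher than in the whole list. GCATGCG was present in 13 of 59 respiratory chain promoters (22.0%), against 6.9% of promoters of tested genes and 4.1% of all promoters, and in 9 of the 34 whose genes rose.

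Genes of protein folding and of the proteasome were higher as well, but other lists of protein breakdown moved both ways. Autophagy had 3 of 30 genes higher and 8 lower, and deubiquitinases 4 of 43 higher and 8 lower. Cullins, COP9 and F-box proteins had 11 of 44 higher and 1 lower, and the lysosome 14 of 59 higher and 7 lower. The proteasome had 20 of 39 genes higher and 2 lower (median 0.73), and cytosolic chaperones had 23 of 45 higher and 3 lower (median 0.48). Folding enzymes and stress-response genes of the endoplasmic reticulum had 17 of 43 higher and 4 lower (1 without EZH2 mutant replicate 1).

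PSMC3, a motor subunit of the proteasome, stood at 171, 172 and 185 CPM in WT and at 526 and 413 in the EZH2 mutant (1.41 ± 0.15). The motor subunit PSMC4 and the ubiquitin receptor ADRM1 each rose by 1.21. PSME2, of the activator used in antigen processing, rose from 156, 148 and 137 CPM to 421 and 394 (1.47 ± 0.13), and the immunoproteasome subunit PSMB10 by 0.81. PSMG2, a chaperone that helps build the core particle, fell from 108, 119 and 159.9 CPM to 65.5 and 75 (-0.87 ± 0.18). PSMG2 therefore moved apart from these proteasome genes in the same libraries.

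CCT7, a subunit of the actin- and tubulin-folding ring, rose from 468, 449 and 439 CPM to 1191 and 981 (1.26 ± 0.13, edgeR adjusted p = 1.1e-06). HSP90AB1, the constitutive cytosolic HSP90, rose from 1333, 1027 and 1266 CPM to 2929 and 2972, and its co-chaperone STIP1 by 1.55 ± 0.22. The small heat-shock protein HSPB1 fell from 1846, 1596 and 1732 CPM to 917 and 770.0 (-1.03 ± 0.14). In the endoplasmic reticulum the lectin chaperone CALR rose from 946, 866 and 929.6 CPM to 2869 and 1983 (1.41 ± 0.15). SDF2L1, PDIA4 and FKBP11, a co-chaperone, a disulfide isomerase and a prolyl isomerase, rose by 1.39, 1.16 and 1.09. EDEM1, which sends misfolded glycoproteins to degradation, fell from 302, 360.4 and 274 CPM to 119 and 161 (-1.14 ± 0.18), and XBP1, the transcription factor of this response, did not pass the test (-0.16 ± 0.17).

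Among the genes that process and move RNA, the spliceosome of the U2, U5 and NTC particles had 17 of 44 genes higher and none lower (median 0.39). PHF5A, a subunit that helps recognise the branch point, rose from 75.2, 70.4 and 64.8 CPM to 187 and 163 (1.32 ± 0.16). PRPF31 rose by 1.15 and the export adaptor ALYREF by 1.16. Exosome and deadenylation genes were mixed, at 9 higher and 7 lower of 41, although the exosome subunits EXOSC4 and EXOSC5 rose by 1.23 and 1.06. The splicing regulator SRSF5 fell from 576, 747 and 747 CPM to 369.7 and 408 (-0.83 ± 0.14).

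In nuclear transport and transcription, the importin IPO4 rose from 40.7, 39.4 and 42.2 CPM to 147 and 99.3 (1.57 ± 0.20). RAN, the GTPase that gives this transport its direction, fell from 40.2, 45.6 and 42.9 CPM to 17.4 in both mutant libraries (-1.30 ± 0.29). POLR2L, a small subunit common to the nuclear RNA polymerases, rose from 294, 257 and 209 CPM to 811 and 693 (1.57 ± 0.15).

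**Figure D1:**
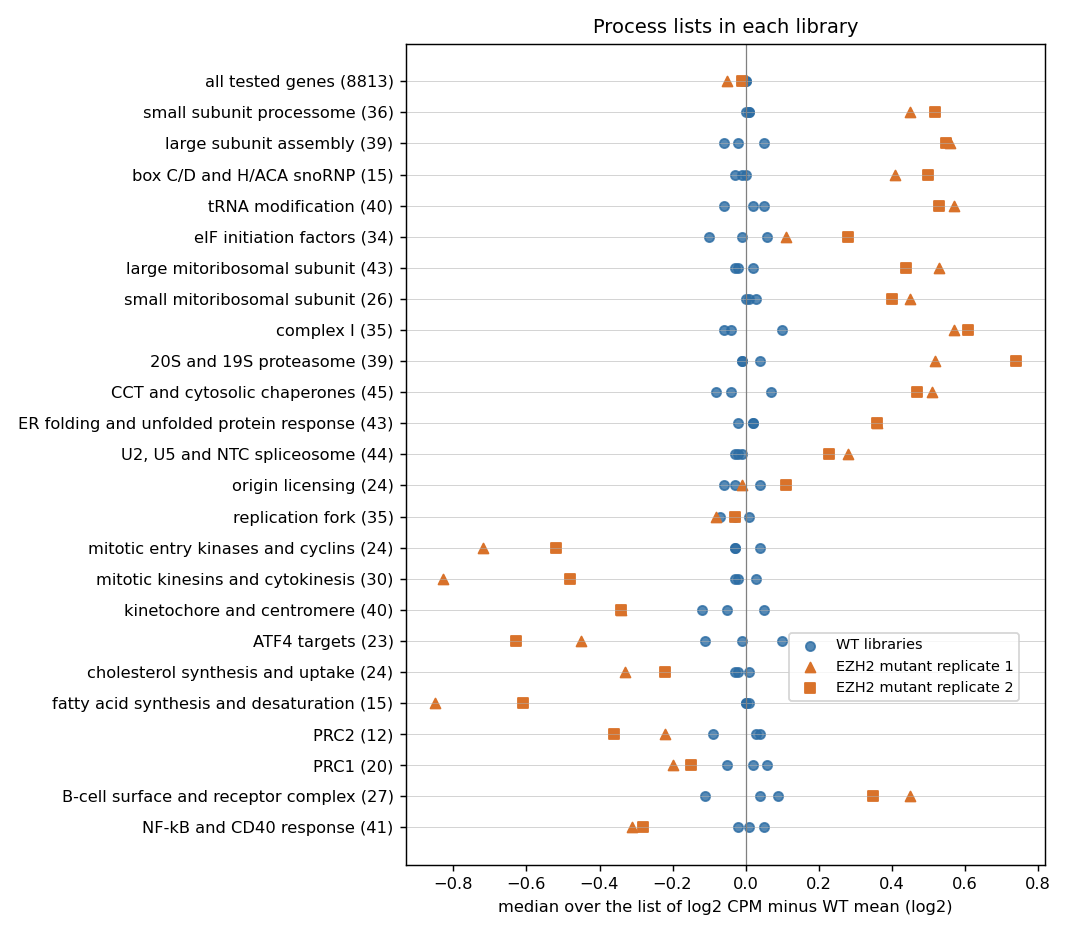
Median log2 deviation of each process list from the WT mean, drawn per library (blue circles, 3 WT libraries; orange symbols, 2 EZH2 mutant libraries), with all tested genes in the top row. For ribosome, mitochondrial and proteasome lists both mutant libraries sit right of the WT libraries, and for the mitotic, ATF4 and fatty acid lists left of them.

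Genes of mitosis were lower in the EZH2 mutant, while those of DNA replication were near the background. Of 24 mitotic entry kinases and cyclins 12 fell and none rose (median -0.56). Of 30 mitotic kinesins and cytokinesis genes 13 fell and none rose (median -0.68). Of 40 kinetochore and centromere genes 12 fell and 1 rose (median -0.40). Origin licensing had 3 higher and 3 lower of 24, and the replication fork 4 higher and 3 lower of 35, and leaving out single libraries gave 5 at most in either direction.

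CDK1, the kinase that drives cells into mitosis, stood at 108, 122 and 189 CPM in WT and at 45.1 and 54.6 in the EZH2 mutant (-1.47 ± 0.26, edgeR adjusted p = 0.00052). The centrosome kinase NEK2 fell from 69.0, 76.2 and 85.1 CPM to 15.4 and 23.8 (-1.90 ± 0.23). KIF11, the motor that pushes spindle poles apart, fell from 54.9, 64.3 and 106 CPM to 19.5 and 29.8, and the cytokinesis kinase CIT from 27.2, 40.5 and 40.6 to 9.22 and 14.4. In all 4 genes the highest mutant library lay below the lowest WT library. NCAPG2 of condensin fell by 1.38 on the log2 scale and the securin PTTG1 by 1.15, while CENPX, which binds centromeric DNA, rose from 325, 251 and 249 CPM to 674 and 542 (1.14 ± 0.14). The checkpoint kinase BUB1B stood at 11.3, 12.2 and 21.1 CPM against 3.07 and 4.96, with edgeR adjusted p = 0.01 that rose to 0.064 without EZH2 mutant replicate 1.

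The number of mitotic genes that fell depended on the mutant libraries. Without EZH2 mutant replicate 1 the counts were 7 for entry kinases, 6 for kinesins and 3 for kinetochore genes, and without its replicate 2 they were 7, 12 and 9.

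The CHR, a word found in promoters of genes that peak in mitosis, is shown for 2 of these genes in the window used above, with TTTGAA or its reverse TTCAAA in capitals. KIF11 lies at chr10:92592980-92593159 and BUB1B at chr15:40160919-40161098, both on the plus strand.
KIF11: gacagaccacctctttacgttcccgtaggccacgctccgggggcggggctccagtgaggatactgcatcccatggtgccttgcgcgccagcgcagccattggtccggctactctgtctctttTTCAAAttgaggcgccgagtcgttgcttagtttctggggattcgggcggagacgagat
BUB1B: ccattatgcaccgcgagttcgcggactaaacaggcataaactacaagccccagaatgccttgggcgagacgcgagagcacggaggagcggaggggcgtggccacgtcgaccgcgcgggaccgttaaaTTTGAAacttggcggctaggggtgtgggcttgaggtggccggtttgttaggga

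On either strand of 300 bases it was present in 43 of 79 promoters of the 3 mitotic lists (54.4%), against 8.8% of promoters of tested genes and 15.4% of all promoters, and in 20 of the 28 whose genes fell. The CCAAT box was present in 57 of the 79 (72.2%), against 38.4% and 35.7%.

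Around the decision to divide, the changes ran in both directions. CCND3, the D cyclin of germinal center cells, fell from 765, 736 and 784 CPM to 441 and 436 (-0.80 ± 0.13). Its partner kinase CDK4 rose by 0.71 ± 0.16 and the transcription factor E2F4 by 0.98 ± 0.13. CDKN1A, the p21 inhibitor, rose from 14.1, 13.9 and 12.7 CPM to 48.1 and 56.6 (1.96 ± 0.22), and CDKN2C, the p18 inhibitor, fell from 207, 171 and 185 to 91.2 and 84.4 (-1.10 ± 0.15).

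Targets of ATF4, the factor that answers amino acid shortage, were lower. Of 23 tested, 13 fell and 1 rose (median -0.61). ATF5, a related factor that ATF4 induces, stood at 1390.2, 1438 and 1302 CPM in WT and at 787 and 528 in the EZH2 mutant (-1.07 ± 0.17, edgeR adjusted p = 0.00012). CHAC1, which degrades glutathione, fell from 175, 131 and 155 CPM to 70.7 and 53.6 (-1.33 ± 0.20), and CEBPB from 152, 135 and 143 to 70.7 and 74.0 (-0.98 ± 0.15). ATF4 itself stood at 1060.3, 974 and 1006 CPM against 876 and 685 and did not pass the test (edgeR adjusted p = 0.056), although it did under 11 of 15 other settings. The mitochondrial one-carbon enzymes SHMT2 and MTHFD2 fell by 0.68 and 1.14 on the log2 scale, within a folate and serine list of 2 higher and 6 lower of 18. Without EZH2 mutant replicate 2, 8 of the ATF4 targets were called lower. The ATF4 word TGATGNAA, searched on both strands of 300 bases, was present in 4 of 20 target promoters (20.0%), against 1.7% of promoters of tested genes, but in only 1 of the 11 whose genes fell.

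Sterol and fatty acid synthesis had more genes lower than higher. Of 24 cholesterol genes 9 fell and 2 rose, and of 15 fatty acid genes 8 fell and 1 rose. FDFT1, squalene synthase, stood at 423, 492 and 519 CPM in WT and at 125 and 195 in the EZH2 mutant (-1.56 ± 0.20). SCD, which makes monounsaturated fatty acids, fell from 199.7, 244 and 234 CPM to 73.7 and 81.4 (-1.54 ± 0.25). The sterol sensor INSIG1, the sterol transcription factor SREBF2 and ACLY, which supplies acetyl-CoA, fell by 1.50, 0.71 and 1.14 on the log2 scale. The cholesterol and fatty acid falls numbered 5 and 5 without EZH2 mutant replicate 1, and 5 and 6 without its replicate 2. The sterol word TCACNCCAC was present in 1 of 18 promoters of cholesterol genes (5.6%), against 1.1% of promoters of tested genes.

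Sugar and nucleotide lists had more genes higher than lower, although single genes went both ways, and polyamine genes were mixed. SLC2A1, the glucose transporter, rose from 105, 112 and 109 CPM to 232 and 229 (1.09 ± 0.14), and the glycolytic enzymes PFKM and GPI rose by 0.90 and 0.83, in a glycolysis list of 9 higher and 2 lower of 23. Of 18 purine synthesis genes 7 rose and 1 fell, and of 20 pyrimidine and deoxynucleotide genes 10 rose and 3 fell. With GC and abundance trends removed these counts were 7 and 1, and 5 and 3, and those of glycolysis 6 and 3. PFAS and CAD, enzymes of the purine and pyrimidine paths, rose by 1.16 and 0.68. NME1, a nucleoside diphosphate kinase, rose from 244, 193 and 221 CPM to 495 and 576, while its mitochondrial relative NME4 fell from 44.1, 30.9 and 37.2 to 17.4 and 11.9. RRM2, the small subunit of ribonucleotide reductase, fell from 101, 149 and 117 CPM to 61.5 and 55.1 (-1.08 ± 0.20).

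Of 11 polyamine genes tested, 3 rose and 2 fell (27.3% and 18.2%), with a median log2 difference of -0.09. ODC1, which makes putrescine, stood at 356, 368 and 316 CPM in WT and at 633 and 934 in the EZH2 mutant (1.18 ± 0.16). SRM, spermidine synthase, rose from 523, 401 and 466 CPM to 1391 and 1184 (1.47 ± 0.15, edgeR adjusted p = 1.1e-06). SAT1, which tags polyamines for export and breakdown, fell from 78.1, 85.3 and 88.6 CPM to 21.5 and 23.3 (-1.89 ± 0.20). The others called were OAZ1, the antizyme that directs ODC1 to breakdown, which rose by 0.61 ± 0.13, and SMS, spermine synthase, which stood at 59.97, 64.9 and 85.9 CPM against 35.8 and 54.1 (-0.60 ± 0.22, edgeR adjusted p = 0.043, which was 0.33 without EZH2 mutant replicate 1 and 0.16 without WT replicate 3). GSTO1, a redox enzyme outside this list, fell from 55.4, 67.3 and 62.5 CPM to 18.4 and 8.94 (-2.31 ± 0.25).

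Among chromatin genes other than PRC2, the PRC1 complexes, which ubiquitinate histone H2A, had 3 higher and 6 lower of 20 (3 lower without EZH2 mutant replicate 1). PCGF5, which defines one of the variant complexes, fell from 96.8, 103 and 111 CPM in WT to 23.6 and 9.43 in the EZH2 mutant (-2.81 ± 0.27, edgeR adjusted p = 8.0e-07; -3.43 and -2.14 without mutant replicates 1 and 2). Of the chromobox readers of the PRC2 mark, CBX7 fell from 42.4, 44.9 and 33.4 CPM to 20.5 and 20.4, and CBX6 rose from 100.2, 67.7 and 56.4 to 181 and 120.1. The readers thus did not share a direction. Histone demethylases, which include the enzymes that remove the mark, had 1 of 18 higher and none lower. The linker histone H1-10 fell from 968, 779 and 781 CPM to 366 and 284 (-1.38 ± 0.16), and the histone gene H4C3, one of a family of near-identical copies between which reads could be split, from 9320.3, 9442 and 7878 to 4609 and 3189.5 (-1.19 ± 0.21). Only polyadenylated transcripts were counted, so any histone transcripts without a poly(A) tail were not seen. YEATS4, an acetylation reader, fell by 1.41 on the log2 scale, and CHD3, a remodeller of the NuRD complex, rose by 1.05.

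**Figure D2:**
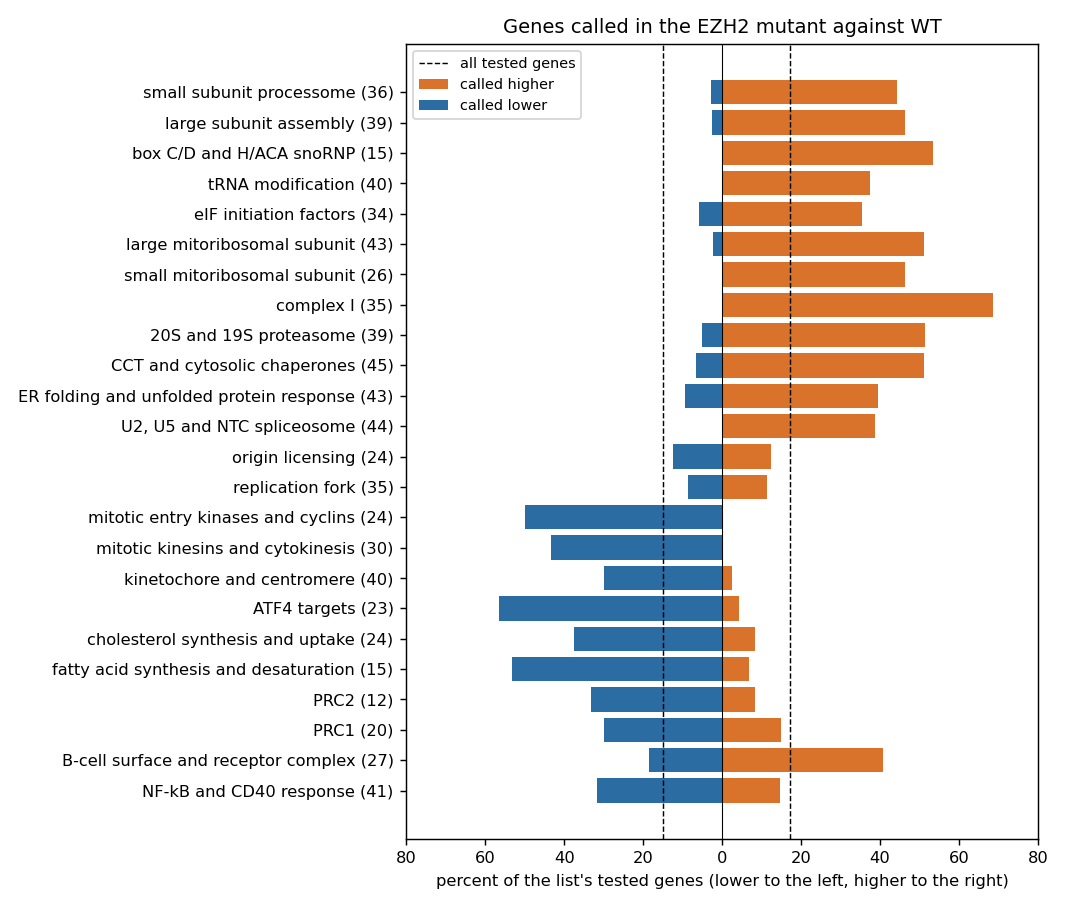
Share of each list's tested genes called higher (right, orange) or lower (left, blue) in the EZH2 mutant, in percent, with dashed lines at the 17.1% and 15.1% of all tested genes. Among the lists drawn, complex I reaches the farthest right and ATF4 targets the farthest left.

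The B-cell programs did not move as one. BCL6, the repressor that defines germinal center cells, stood at 124, 102 and 129.6 CPM in WT and at 35.8 and 43.7 in the EZH2 mutant (-1.55 ± 0.19, edgeR adjusted p = 9.4e-06). The Wnt effector LEF1 fell from 191, 223 and 209 CPM to 61.5 and 95.8, SPIB, an ETS factor of B cells, rose from 35.1, 34.0 and 21.1 to 58.4 and 68.5, and PAX5, which holds B-cell identity, did not pass the test (193, 208 and 161 against 170.0 and 156). UNG, the glycosylase that removes uracil from DNA, fell from 104, 89.1 and 115 CPM to 38.9 and 55.1 (-1.08 ± 0.21). IRF4, which drives exit to the plasma cell, stood at 322, 375 and 310.1 CPM against 175 and 242 (-0.67 ± 0.15), with edgeR adjusted p = 0.0023 that rose to 0.063 without EZH2 mutant replicate 1. Among 30 identity factors 6 fell and 5 rose, the rises being 1 without WT replicate 3, 2 without WT replicate 2 and 3 without EZH2 mutant replicate 1. In the plasma cell list 3 rose and 5 fell of 16, the falls being 3 without either mutant replicate.

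At the cell surface more genes were higher than lower: 11 and 5 of 27, the falls being 3 without WT replicate 3 or EZH2 mutant replicate 2. That balance was nearly even, at 8 higher and 7 lower, once GC and abundance trends were removed. CD79B rose by 0.75 ± 0.16. CD79A stood at 4852, 3148 and 4086 CPM against 6618 and 4436, with overlapping groups (edgeR adjusted p = 0.054, which was 0.015 without WT replicate 1 and 0.0081 without EZH2 mutant replicate 2). SIGLEC10, an inhibitory lectin, rose from 31.7, 26.5 and 25.3 CPM to 57.4 and 61.6 (1.11 ± 0.19), and the phosphatase PTPN6, which acts behind such receptors, from 107, 88.7 and 95.5 to 252 and 211 (1.25 ± 0.14). ITGB2, the chain of leukocyte integrins, fell from 19.8, 23.8 and 15.3 CPM to 4.10 and 3.97 (-2.28 ± 0.38), mutant levels that rest on few counts.

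In the NF-kB and CD40 response 13 of 41 genes fell and 6 rose. TNFAIP3, the A20 brake on NF-kB, stood at 23.8, 22.4 and 20.3 CPM in WT and at 6.15 and 9.93 in the EZH2 mutant (-1.37 ± 0.32). The lymphotoxin chain LTB fell from 400.0, 380.1 and 395 CPM to 229 and 177, and TNFSF8, the CD30 ligand, from 36.8, 33.0 and 39.1 to 11.3 and 10.9. The DNA sensor TLR9 and its kinase IRAK1 rose by 1.38 and 1.08. The count of falls rested on single libraries: it was 4 without EZH2 mutant replicate 2 and 8 without WT replicate 3.

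For antigen display, HLA-E, a non-classical class I molecule, fell from 621, 540.3 and 578 CPM to 400.5 and 376 (-0.58 ± 0.13), against 9 higher and 2 lower of 19 in the class I list. That balance depended on the scaling, with 6 higher and 4 lower under upper-quartile factors and 6 higher and 5 lower once GC and abundance trends were removed. IFI30, the thiol reductase that opens antigens for class II loading, rose from 475, 391 and 421 CPM to 1653 and 1325 (1.79 ± 0.14, edgeR adjusted p = 9.0e-08). The interferon-induced genes ISG15 and BST2 rose by 1.16 and 0.95, in a list of 47 with 11 higher and 6 lower. That list was unsteady: rises numbered 5 without EZH2 mutant replicate 1 or WT replicate 2 and 7 without WT replicate 3, and falls 1 without EZH2 mutant replicate 1, 2 without its replicate 2 and 3 without WT replicate 3.

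**Figure D3:**
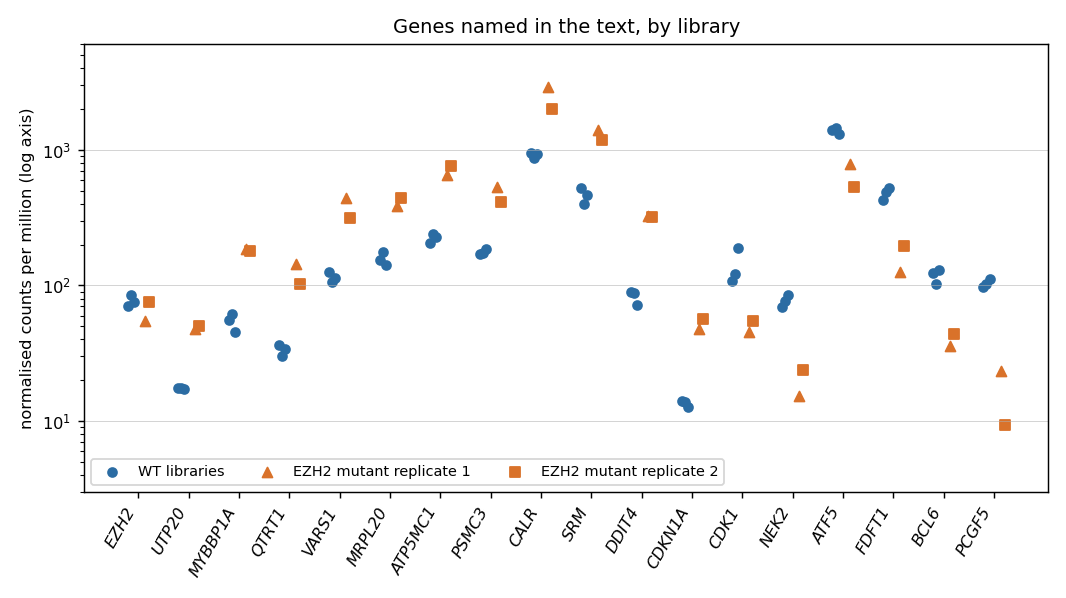
CPM of 18 genes in each library on a log axis (blue circles, 3 WT libraries; orange symbols, 2 EZH2 mutant libraries). EZH2 overlaps between the groups, and in the other 17 genes every mutant library lies on one side of all 3 WT libraries. Named genes were chosen in part for this separation, which 2399 (above) and 2445 (below) of all 8813 tested genes showed.

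Signalling, death and shape genes included several of the largest changes. DDIT4, the stress-induced brake on mTORC1, stood at 89.4, 88.1 and 71.3 CPM in WT and at 326 and 318 in the EZH2 mutant (1.96 ± 0.16, edgeR adjusted p = 9.0e-08). RPTOR, a core subunit of mTORC1, rose by 1.14 ± 0.17 and DEPTOR, its inhibitor, fell by 0.95 on the log2 scale. HRAS rose from 49.8, 59.8 and 65.6 CPM to 170.0 and 124, and the phosphatase DUSP22 fell from 330.4, 319 and 341 to 202 and 152. BBC3, the death-promoting BCL2 relative PUMA, fell from 40.7, 39.1 and 55.2 CPM to 12.3 and 5.46 (-2.50 ± 0.33, and -1.87 without EZH2 mutant replicate 2), and AIFM1, a mitochondrial flavoprotein, rose by 0.98 ± 0.16. PI3K, AKT and mTOR genes together had 16 higher and 5 lower of 49, a count of rises that was 8 without EZH2 mutant replicate 1 and 10 without WT replicate 2 or 3.

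Of 71 actin assembly genes 17 rose and 12 fell, with 10 rises without EZH2 mutant replicate 1 or WT replicate 3, 11 without WT replicate 2, and 7 falls without WT replicate 3. WASF2, which activates branching, fell from 224, 213 and 225 CPM to 96.3 and 63.0 (-1.51 ± 0.19), and WIPF1, a partner of its relative WASP, from 41.3, 40.1 and 54.4 to 13.3 and 18.4. ARPC4 of the branching complex rose from 84.9, 85.3 and 76.3 CPM to 277 and 179 (1.45 ± 0.19), and the filament capper CAPG from 11.3, 11.9 and 10.4 to 58.4 and 46.2 (2.20 ± 0.24). ANXA2, a membrane-binding annexin, fell from 33.9, 41.5 and 46.8 CPM to 8.19 and 4.47 (-2.81 ± 0.35). In the lysosome, ATP6V0D1 of the proton pump rose by 1.38 and LAMP1 by 1.23, while the cholesterol carrier NPC2 fell by 0.77 on the log2 scale. PINK1, the kinase that marks damaged mitochondria, fell from 39.0, 37.1 and 34.1 CPM to 14.3 and 8.94 (-1.74 ± 0.28).

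Some genes that WT expressed came close to 0. KCNK6, a potassium channel, had 18, 40 and 18 counts in WT and 0 and 1 in the EZH2 mutant, a depth-corrected ratio of WT to mutant of 31.0 (95% interval 5.40 to 1240.0, counting error only). SPON2, a secreted matrix protein, had 19, 51 and 41 counts against 0 and 3, and SEZ6L2 17, 31 and 32 against 0 and 2. In the other direction TYROBP, a signalling adaptor of innate immune cells, had 0, 1 and 0 counts in WT and 5 and 8 in the EZH2 mutant, too few to test. Summed myeloid markers were 20.4, 32.6 and 26.5 CPM in WT and 19.5 and 18.9 in the EZH2 mutant.

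By kind of gene, the counts ran differently. Of 398 lncRNA genes tested 89 fell (22.4%) and 23 rose (5.8%), with a median of -0.48, against 1199 (14.8%) and 1466 (18.1%) of 8118 protein-coding genes and a median of -0.02. Whether these kinds of gene differ was not tested. None of 70 LINC genes rose and 14 fell. The 71 ribosomal protein genes had 20 higher and 6 lower.

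The GC content of the transcript end moved with the result. Across 8622 genes the log2 difference correlated with the GC share of the last 500 bases at Spearman's rho = 0.35, a description over genes that share libraries and are not independent replicates. From the lowest to the highest of 5 groups of like size by GC the median log2 difference was -0.55, -0.22, 0.04, 0.21 and 0.27, and the share called higher was 3.4%, 8.8%, 19%, 26.2% and 29.6%. Within single libraries, deviations from the mean of the WT libraries, or of the other WT libraries for WT itself, tracked GC at rho = 0.53, -0.26 and -0.30 in WT and at 0.48 and 0.18 in the EZH2 mutant. WT replicate 1 and both EZH2 mutant libraries were thus positive, and the other WT libraries negative. The 3 WT deviations cancel within each gene by construction, so their signs are not independent of each other. With the GC and abundance trends taken out of every library, 1425 genes were higher and 1191 lower. Under that setting 17 processome genes, 24 of large subunit assembly, 19 of complex I and 20 of the proteasome were called higher, and 15 mitotic entry genes, 17 kinesins and 15 ATF4 targets lower, whereas fatty acid synthesis had 5 lower and kinetochores 7. Large mitoribosomal subunit genes then had 16 higher, cytosolic synthetases 8 lower, PI3K genes 8 higher, and actin assembly genes 9 higher and 13 lower. What part GC has in single genes was not tested.

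**Figure D4:**
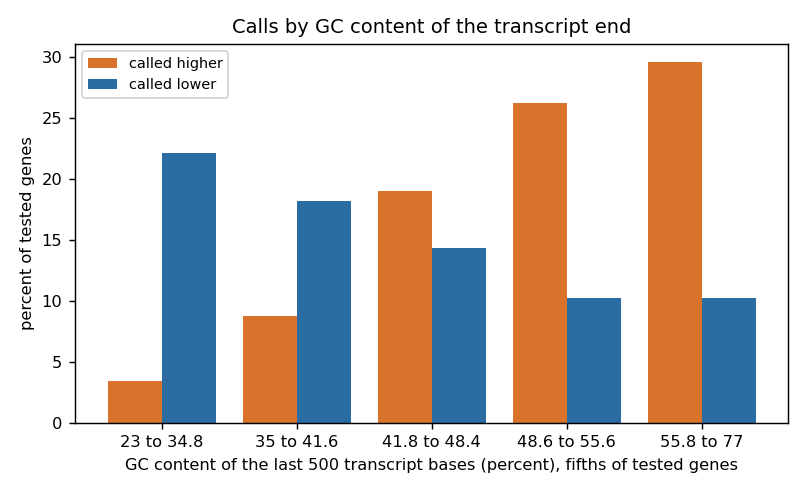
Share of tested genes called higher (orange) or lower (blue) in the EZH2 mutant, in percent, in 5 groups of genes by GC content of the last 500 transcript bases. The share called higher climbs from 3.4% to 29.6% and the share called lower drops from 22.1% to 10.2%.

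The same EZH2 mutation was also present over kmt2d-/-, which loses an H3K4 methyltransferase, and this comparison of 3 double mutant with 3 kmt2d-/- libraries shares no sample with the one above. It called 3695 of 8813 genes (41.9%), 1864 higher (21.2%) and 1831 lower (20.8%). Genes called higher in both comparisons numbered 1081, 71.5% of the first list and 58.0% of the second, and genes called lower in both 820 (61.4% and 44.8%). Both comparisons tracked the GC content of transcript ends, at Spearman's rho = 0.35 in the first and 0.38 in the second. From the lowest to the highest GC group, the second had median log2 differences of -0.52, -0.15, 0.06, 0.22 and 0.38. What part GC has in the shared calls was not tested. The test of the difference between the comparisons called 266 genes (3.02%), of which 141 were among the 2846. That count was 153 and 159 without kmt2d-/- replicates 1 and 3, 147 without EZH2 mutant replicate 2, and 479 once GC and abundance trends were taken out.

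Of the lists that rose, those called higher over kmt2d-/- were 18 processome genes, 18 of large subunit assembly, 14 of tRNA modification, 20 of the large mitoribosomal subunit, 17 of complex I and 19 of the proteasome. Of the lists that fell, ATF4 targets had 4 higher and 6 lower over kmt2d-/-, mitotic entry genes 3 and 7, kinesins 3 and 9, and kinetochore genes 7 and 5. Cholesterol genes had 2 higher and 8 lower there, fatty acid synthesis 1 and 7 (median -0.51, against -0.54 over WT), and the NF-kB list 12 and 8. By the test of the difference itself, 4 of the 23 ATF4 targets and 4 of 41 NF-kB genes were called. It called 2 of 24 mitotic entry genes, 0 of 30 kinesins and 0 of 40 kinetochore genes. Among cholesterol and fatty acid genes it called 0 of 24 and 0 of 15, against 3.02% of all tested genes. The unlike counts of calls in the mitotic lists are thus not shown to be a difference between the backgrounds. ATF5 rose by 0.88 over kmt2d-/- where it fell here (difference 1.95, edgeR adjusted p = 1.9e-05), and NME4 rose by 1.74 (difference 3.14, edgeR adjusted p = 2.6e-06). PTTG1, UNG and H4C3 had log2 differences of 0.01, 0.06 and 0.00 over kmt2d-/-. BCL6 fell over both, by 1.55 and 0.58 on the log2 scale (difference 0.97, edgeR adjusted p = 0.03). CD79B, which rose here, had -0.14 over kmt2d-/-, and DBN1, an actin-binding protein, rose by 1.97 here and fell by 3.19 there.

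**Figure D5:**
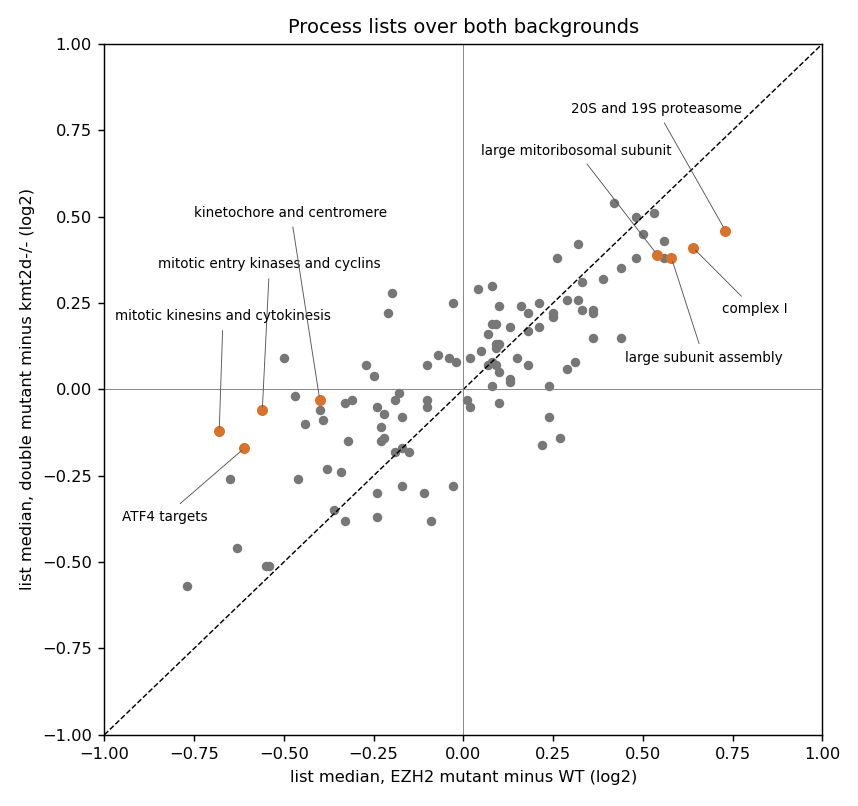
Median log2 difference of each list for EZH2 mutant against WT (x axis) and for double mutant against kmt2d-/- (y axis), 1 point per list with at least 10 tested genes and the diagonal as a dashed line. The ribosome, mitochondrial and proteasome lists marked in orange lie at upper right, at 0.38 to 0.46 on the y axis, and the marked ATF4 and mitotic lists lie at the left, between -0.17 and -0.03 on the y axis.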

How the data were processed

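MARS-seq libraries of 4 OCI-Ly7 lines were read from the table of whole-number counts per gene that the authors deposited. Its name calls the counts corrected, with no source used here saying for what. The submitters' processing notes name Trim Galore 0.6.0, cutadapt 1.15, STAR 2.7.0f and DESeq2 with no role; the counting program, genome build and annotation are not given in the sources used here, so no gene coordinates are printed except those of the RefSeq promoters (GRCh38.p14). Columns were matched to samples by title, and the 3 named DM were taken as the kmt2d-/- + EZH2 Y646N line. Library totals ran from 1118710 to 3107871 counts.

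The counts were fitted with edgeR 4.0.16 (R 4.3.3) by the robust quasi-likelihood test over all 11 libraries, with trimmed mean of M values scaling, edgeR's filter at a minimum count of 10 and Benjamini-Hochberg adjustment over 8813 genes. CPM values are per replicate, and ± after a log2 difference is its standard error. The script was tested on simulated data of the EZH2 mutant and WT comparison. It recovered 40 of 100 planted 2-fold changes and 5 of 100 planted 1.5-fold changes, with 2 false calls. A gene that did not pass the test is therefore not shown to be unchanged. The members, lists, promoter words and alternatives were chosen with earlier results of these data known. Named genes are EZH2, preset members of the 117 lists, up to 4 called members each way per list with a mean of at least 10 CPM and no overlap between the lines, the largest changes over all genes, and genes with at most 3 counts in one line. From these, the text favours genes that kept their call when single libraries were left out, a choice made after their values were seen. Of 4354 list entries, 4342 were found in the table. Alternatives were other scalings, filters, DESeq2 1.42.0, limma-voom (limma 3.58.1), a fit of only the 2 lines, a replicate block, removal of an abundance trend and single libraries left out; removal of GC and abundance trends together was chosen after seeing the data. GC was taken from the last 500 bases of GENCODE transcripts matched by symbol. The 95% intervals and 3-count floors cover counting error only.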

Additional observations from a re-analysis of the deposited data

Results flagged for a closer look

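Of 154 genes named in the text, 17 responded differently to the EZH2 mutation over wild type and over kmt2d-/-, by the interaction term in edgeR (quasi-likelihood, Benjamini-Hochberg adjusted). The test called 3.02% of all 8813 genes, but the named genes were chosen largely for their change over wild type, which also enters this difference, so their share is a description. Values are the log2 difference over kmt2d-/- minus that over wild type, from 3 double mutant, 3 kmt2d-/-, 2 EZH2 mutant and 3 wild-type libraries. In mitosis and the cell cycle they were 1.44 for NEK2, 1.04 for NCAPG2, 1.16 for PTTG1 and 0.95 for CDKN2C, all of which fell over wild type, by 1.90, 1.38, 1.15 and 1.10 on the log2 scale, and stood at -0.46, -0.34, 0.01 and -0.15 over kmt2d-/-. In metabolism they were 1.95 for ATF5, 3.14 for NME4 and 1.97 for GSTO1, of which ATF5 and NME4 changed in opposite directions over the 2 backgrounds. In chromatin they were 1.37 for PCGF5 and 1.19 for H4C3. In the B-cell programs they were 0.97 for BCL6, 1.14 for UNG, -0.88 for CD79B and -0.81 for LTB. For the killer BBC3 the value was 1.98, for the chaperone HSPB1 -1.17, for the filament capper CAPG -1.72 and for the actin-binding DBN1 -5.16. Adjusted p-values ran from 1.1e-06 for DBN1 to 0.049 for NCAPG2.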

How the results depend on the processing

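Of 154 named genes, none that passed the test changed sign over the other settings tried. Of those that did not pass, XBP1 went from -0.16 to 0.06 without WT replicate 3 and EEF2 from 0.15 to -0.03 with upper-quartile factors, -0.05 with the abundance trend removed and -0.16 with GC and abundance trends removed, passing under none of these; the cause was not tested. Over all settings 15 of 2310 values no longer passed the test where the reported one did. The named genes were favoured for keeping their call when single libraries were left out, so these counts do not describe other genes. In the lists for ribosome subunits, tRNA modification, the large mitoribosomal subunit, complex I, the proteasome, cytosolic chaperones and the spliceosome, the number of rises stayed within 1.5 times of that reported under every setting. Leaving out single libraries gave ranges of 14 to 16 for the processome, 16 to 19 for large subunit assembly, 10 to 16 for tRNA modification, 15 to 23 for the large mitoribosomal subunit, 18 to 20 for complex I, 16 to 20 for the proteasome, 19 to 23 for chaperones and 12 to 15 for the spliceosome. Over all genes it gave 1779 to 2874 called, 1003 to 1519 higher and 776 to 1355 lower. The lists that fell were less stable: 7 to 12 for mitotic entry, 6 to 13 for kinesins, 3 to 11 for kinetochores, 8 to 15 for ATF4 targets, 5 to 9 for cholesterol, 5 to 8 for fatty acids and 4 to 12 for NF-kB. Kinetochore falls were 19 with upper-quartile factors and 7 with GC and abundance trends removed, which left 5 fatty acid falls, and NF-kB falls were 8 with the abundance trend removed; the cause was not tested. Calls in kmt2d-/- cells ranged from 2708 to 3885 and those for the difference from 147 to 309, with 482 under no filter, where 15090 genes entered, and 479 with GC and abundance trends removed. The replicate numbers appear in both lines, but only replicates 1 and 2 are shared (r of their deviations 0.376 and 0.216). With 2 mutant libraries, pairs of unlike number must mirror these values (-0.376 for WT replicate 1 and -0.216 for WT replicate 2). Whether libraries of 1 number were handled together was not tested. With the replicate block 1291 genes were higher and 1154 lower. Interferon and PI3K rises, actin calls and PRC2 and PRC1 falls moved by more than 1.5 times under the block or other settings. Depth limits genes under about 2.68 CPM, where 3 counts lie in the shallowest library.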
